A study of Salvia miltiorrhiza with 5 samples.

Results

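The small RNA library of the root of Salvia miltiorrhiza, the danshen of Chinese medicine, was set against the libraries of stem, leaf and flower. All 4 tissues came from plants grown for 8 months in a field and collected at flowering, and no treatment or genotype separated them. The sequences described are those with at least 10 reads summed over the 4 libraries, which were 95 of the 241 distinct sequences in the miRNA table. They held 99.98% of the table's reads, and 76 of them carried a known miRNA name from 36 families, whereas 19 were predicted on expressed sequence tags (ESTs) of the plant. A single library stood for each tissue, so there was no replicate, and every difference below is one between libraries and not between tissues. The labels and the study do not say how many plants went into a library. The table lists miRNAs alone, so the tissue labels could not be checked against marker transcripts.

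Plant miRNAs are cut from hairpin precursors by DICER-LIKE enzymes, and 1 strand of the duplex is loaded into an ARGONAUTE protein, which is guided to matching mRNAs and cleaves them or blocks their translation. Many conserved families act on transcription factors. In roots these include regulators of lateral root formation, auxin response and meristem identity, and other families adjust the uptake of phosphate, sulfate and copper. The root of this species is the organ that stores tanshinones and phenolic acids, the compounds for which it is used.

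The sequences on which the root comparison turned belonged mainly to miR171, miR164 and miR319. They are shown 5′ to 3′ in the T letters of the authors' table, with the seed (bases 2 to 8) in capitals, so that relatives with and without a shared seed can be told apart.
lus-miR171h_L-1R+1: tGAGCCGAaccaatatcactc
ptc-miR171j_L-1R+1_1ss10TC: gAGCCGAAccaatatcactc
osa-miR171b: tGATTGAGccgtgccaatatc
csi-miR164: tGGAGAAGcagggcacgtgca
lus-miR164a_R-1: tGGAGAAGcagggcacgtgc
zma-miR164c-3p_2ss7CT16TC: cATGTGTCcttcttccccatc
aly-miR164b-3p: cATGTGCCcatcttcaccatc
vvi-miR319b_R-1: tTGGACTGaagggagctccc
ptc-miR159d_L-1R-1_1ss7TC: tTGGACTGaagggagctcc
aly-miR319a-5p_L-1R-1_1ss19TG: gAGCTTCCttgagtccagt
The names are those of the most similar miRBase entries of other plants, with suffixes for bases added, removed or replaced, and do not place a sequence in the sage genome.

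Root was compared with the mean of the other 3 libraries on a pair of scales. The first is the authors' normalized count, which is the reads of a library times 1 factor (0.547 for root, against 0.715 for stem, 1.90 for leaf and 1.41 for flower). The second is the share of the library's reads in the table, given here in reads per 1000000 table reads. Reads are estimated counts, since a read that matched several entries was divided between them, and root contributed 499434 of them to the table, against 380306 from stem, 238148 from leaf and 494824 from flower. A sequence was called higher or lower where the ratio of root to the mean of the others was at least 2 or at most 0.5 and its 95% counting interval did not include 1. The interval covers counting error only. Where 1 side had 0 reads, a floor of 3 reads per such library was used and the ratio is a bound.

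By normalized count, root was higher for 13 of the 95 sequences (13.7%) and lower for 46 (48.4%). By share, it was higher for 26 (27.4%) and lower for 27 (28.4%). All 13 sequences higher by normalized count were also higher by share (13.7% of 95), and all 27 lower by share were also lower by normalized count (28.4% of 95), and 0 were called in opposite directions. The median ratio was 0.438 by normalized count and 0.796 by share, a shift of 0.86 in the median log2 ratio between the scales, so counts of direction depended on the scaling. Of the calls, 22.0% were higher by normalized count, against 49.1% by share, 37.0% per clean read and 43.6% with a median-of-ratios scaling. Scaling to totals without the most abundant sequence gave 17.2%, and without the top 10 by reads over all libraries it gave 29.6%. Across all 6 scalings tried, 10 sequences were higher in every one and 27 lower in every one.

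**Figure D1:**
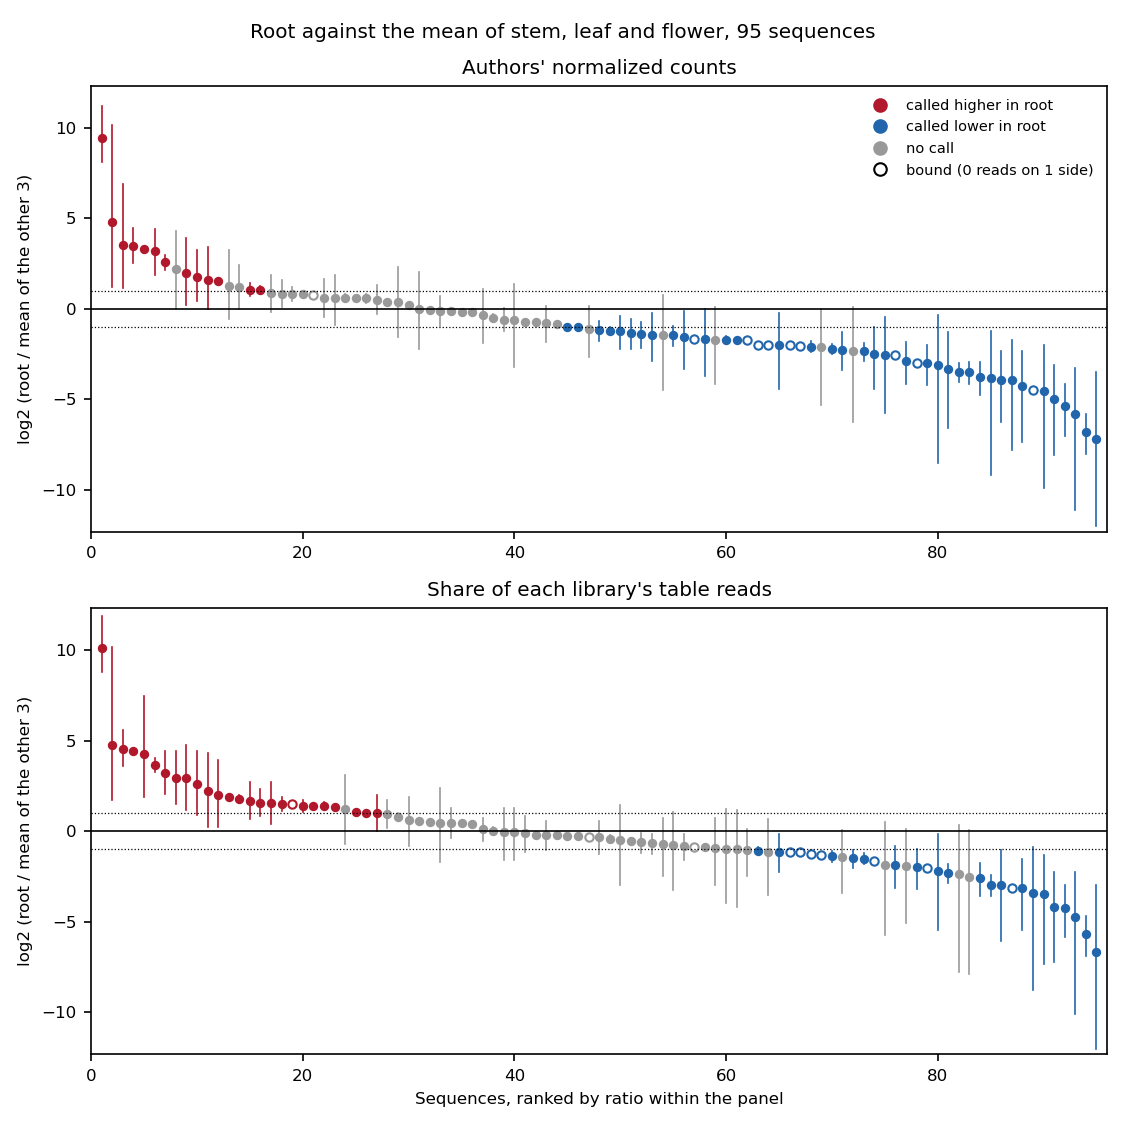
Ratio of root to the mean of stem, leaf and flower for the 95 sequences on a log2 scale, ranked within each panel, by the authors' normalized counts (top) and by share of table reads (bottom). Bars are 95% counting intervals, open circles are bounds and dotted lines mark the 2-fold limits. The 13 red sequences of the top panel are red in the bottom panel too, and 26 are red there.

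Root was the highest of the 4 libraries for 23 sequences and the lowest for 39 by normalized count, and for 29 and 26 by share. The same call applied to each of the other libraries gave, by normalized count, 3 higher and 35 lower in stem, 21 and 16 in leaf, and 29 and 10 in flower. By share these were 13 and 17 in stem, 17 and 21 in leaf, and 17 and 33 in flower. The low number of higher calls in root by normalized count was thus shared with stem. Across the 95 sequences the ranks of root reads correlated with those of stem (Spearman's rho 0.717), leaf (0.622) and flower (0.564), while the 3 pairs without root gave 0.711 to 0.844. These coefficients describe sequences of unequal abundance that were scored on 1 library each.

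The clearest root sequence was lus-miR171h_L-1R+1. miR171 is known to act on GRAS transcription factors of the SCARECROW-LIKE group, which maintain meristems and radial patterning. It had 3319 reads in root, against 0.5 in stem, 4 in leaf and 0 in flower, or 1816 normalized counts in root, against 0.36, 7.61 and 0. The ratio was 684 (95% counting interval 274 to 2362) by normalized count and 1101 (447 to 3714) by share. Root held 99.6% of its normalized count. Without the leaf library in the mean the ratio was 10166, which rests on the 0.5 of a read in stem. It was the 6th most abundant sequence in root, with 0.665% of the table reads, while it ranked 91st in stem, 57th in leaf and 88th in flower.

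A shorter form of this sequence, ptc-miR171j_L-1R+1_1ss10TC, begins at its second base. It had 12.5 reads in root and 0 in stem, leaf and flower. It was the only one of the 95 with reads in root alone, and it passed the read minimum through those reads. Its ratio was a bound of at least 1.70 by normalized count, which is not called, of at least 2.15 without leaf, which is, and of at least 2.83 by share. Of the root reads of both forms, the shorter one made up 0.36%.

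The other miR171 sequence followed the opposite order. osa-miR171b had 11.5 reads in root, against 20.7 in stem, 9.33 in leaf and 161 in flower, and its ratio was 0.073 (0.036 to 0.131) by normalized count and 0.165 by share. Without flower the ratio by normalized count was 0.387. The sequence starts 4 bases earlier along the shared stretch of 17 bases. Counted from the first base of lus-miR171h_L-1R+1, the pair differ by A8T and A9G, with the base of lus-miR171h_L-1R+1 given first, and so they do not share a seed. The family was therefore called in both directions on both scales.

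Among the 13 sequences higher in root on both scales, the miR164 family had the most root reads. miR164 is known to act on NAC transcription factors, among them regulators of lateral root formation in Arabidopsis. csi-miR164 had 9543 reads in root, against 171 in stem, 92 in leaf and 899 in flower, or 5223 normalized counts in root, against 122, 175 and 1267. Its ratio was 10.02 (9.41 to 10.7) by normalized count and 21.6 (20.3 to 23.0) by share. Flower was the nearest library, at a distance of 4.12-fold by normalized count, and without flower in the mean the ratio was 35.2. In root it ranked 4th with 1.91% of the table reads, and it ranked 23rd in stem and leaf and 8th in flower.

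The form of csi-miR164 that is 1 base shorter, lus-miR164a_R-1, had 108 reads in root, against 2 in stem, 1 in leaf and 9 in flower, with a ratio of 11.1 (5.88 to 22.4) by normalized count and 23.5 by share, and 35.5 by normalized count without flower. It made up 1.12% of the reads of both forms in root (95% exact binomial interval 0.92 to 1.35), against 1.16% for stem, 1.08% for leaf and 0.99% for flower. The intervals of these shares overlapped in all 4 libraries. A read of 1 form overlaps the other, so the pair are not separate observations.

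The opposite arm of a miR164 precursor was also higher in root. zma-miR164c-3p_2ss7CT16TC had 313 reads in root, against 12 in stem, 4 in leaf and 50 in flower, with a ratio of 5.93 (4.49 to 7.90) by normalized count and 12.6 by share. Without flower the ratio by normalized count was 21.2. The 3′ arm made up 3.18% of the reads of csi-miR164 and this sequence in root (2.84 to 3.54), against 6.56% in stem (3.43 to 11.2), 4.17% in leaf (1.15 to 10.3) and 5.27% in flower (3.94 to 6.89). The share in root thus lay below that in flower, beyond the counting intervals. That both arms come from 1 precursor is given by the authors' precursor assignment, and neither sequence was placed on an EST of the sage.

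A second 3′ sequence of the family went the other way. aly-miR164b-3p had 0 reads in root, against 5 in stem, 0.5 in leaf and 8.5 in flower, and its bound of at most 0.299 was a lower call by normalized count but not by share, where it was 0.56. Without flower the bound was at most 0.726 and no call. Counted from the first base of zma-miR164c-3p_2ss7CT16TC, the pair differ by T7C, T10A and C16A. With 14 reads in all, this sequence carried little of the family, whose summed normalized counts were 5453 in root, against 136 in stem, 185 in leaf and 1362 in flower.

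miR319 is known to act on TCP transcription factors, which control cell proliferation in leaves. vvi-miR319b_R-1 had 5446 reads in root, against 2659 in stem, 71.7 in leaf and 781 in flower, or 2981 normalized counts in root, against 1901, 136 and 1100. Its ratio was 2.85 (2.73 to 2.98) by normalized count and 3.69 (3.53 to 3.85) by share. The distance to stem, the nearest library, was 1.57-fold, and the ratio was 4.82 without stem and 1.99 without leaf, the last of which was no call. It was the 5th most abundant sequence in root, with 1.09% of the table reads.

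A sequence named ptc-miR159d_L-1R-1_1ss7TC is the same 19 bases without the last base of vvi-miR319b_R-1, and shares its seed. It had 21.9 reads in root, against 6.70 in stem, 1.25 in leaf and 8.92 in flower, and was higher in root by share (3.21) but not by normalized count (1.82, 0.90 to 3.70, and 3.34 with a call without flower). The third sequence with this seed, osa-miR319a-3p.2-3p_R+1, differs from vvi-miR319b_R-1 by A14T, counted from the first base of vvi-miR319b_R-1, and had 2.25 reads in root, against 4, 3.5 and 0.5 in stem, leaf and flower. Its ratio of 0.36 by normalized count was not called. The abundant miR159 sequence, ath-miR159a_R-1, differs from vvi-miR319b_R-1 by C6T and C19T and had a ratio of 0.93, so this abundant relative was not called.

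From the 5′ arm of miR319, aly-miR319a-5p_L-1R-1_1ss19TG had 12 reads in root, against 1 in stem and 0 in leaf and flower. It passed the read minimum only through its root reads. Its ratio was 27.6 (2.30 to 1136) by normalized count and 27.4 by share. Without stem, which held the 1 read outside root, the ratio was a bound of at least 1.32 and no call, and it was 18.4 without leaf or flower. In the degradome library, which held cleaved RNA ends of all 4 tissues mixed, the authors' table paired this sequence with 4 ESTs annotated as calmodulin, with 53 to 128 reads at the cleavage sites. Reads at these sites were shared between the ESTs, and no tissue could be assigned to them.

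A further pair of known sequences was higher in root by a small margin. nta-miR477a, of a family that is less widely conserved, had 160 reads in root, against 98.8 in stem, 16 in leaf and 18 in flower, with a ratio of 2.07 (1.61 to 2.66) by normalized count and 2.64 by share. osa-miR5072_L-4_1ss13GA had 475 reads in root, against 145 in stem, 33 in leaf and 150 in flower, with a ratio of 2.06 (1.78 to 2.40) by normalized count and 3.47 by share. Both lay within 1.24-fold of the nearest library by normalized count. nta-miR477a lost its call without leaf (1.82) or flower (1.73) and stood at 3.13 without stem. osa-miR5072_L-4_1ss13GA lost it without stem (1.90) or leaf (1.65) and stood at 3.12 without flower. In the degradome table osa-miR5072_L-4_1ss13GA was paired with 5 ESTs, of which 2 annotated as peroxidase shared the same 5 reads. Another, annotated as acetyl-CoA C-acetyltransferase, an enzyme of the mevalonate route to terpenoids, had 2 reads, or 0.667 after division. These sites were in category 3 of the study's classes by peak height, and the other pairs in category 4.

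**Figure D2:**
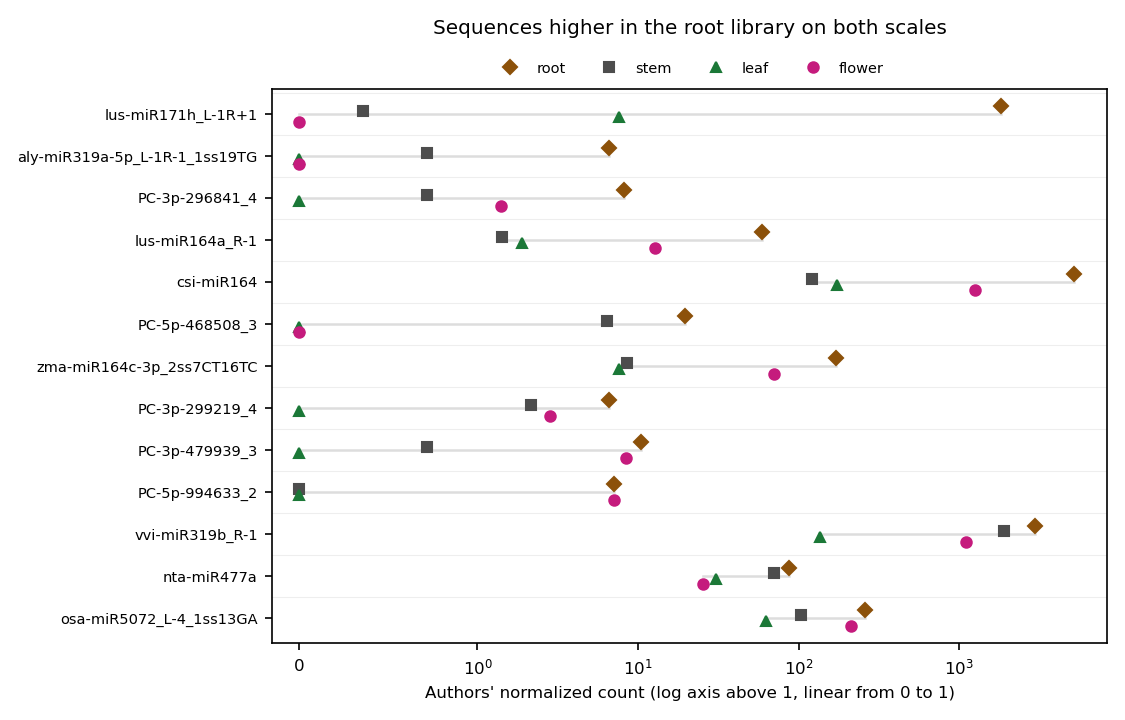
Authors' normalized count in the root, stem, leaf and flower libraries (1 symbol per library) for the 13 sequences higher in root on both scales, ordered by ratio from the top. Root lies to the right of the other 3 symbols in every line, by 239-fold for lus-miR171h_L-1R+1 and by 1.01-fold for PC-5p-994633_2.

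The other 5 sequences higher in root on both scales were predicted ones, each on 1 EST of the sage, with 12 to 36 reads in root. Each had fewer than 10 reads outside root, and so passed the read minimum only through its root reads. PC-5p-468508_3 had 36 reads in root, against 9 in stem and 0 in leaf and flower, and its ratio was 9.19 (3.71 to 21.4) by normalized count and 9.14 by share. Without stem the ratio was a bound of at least 3.97, and without leaf or flower it was 6.13. Its opposite arm, PC-3p-294250_4, had 42 reads in root, against 10 in stem, 9 in leaf and 10 in flower, and was higher by share (2.99) but not by normalized count (1.80, 1.08 to 3.04, and 2.17 with a call without leaf). The 3′ arm made up 53.8% of the reads of both arms in root and 52.6% in stem, whereas in leaf and flower all 9 and 10 reads were of the 3′ arm.

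The precursor of this pair spans bases 184 to 365 of the plus strand of EST CV172499, and is shown with both arms in capitals as the authors' table marks them, since it is the predicted precursor with the most reads in root.
CV172499: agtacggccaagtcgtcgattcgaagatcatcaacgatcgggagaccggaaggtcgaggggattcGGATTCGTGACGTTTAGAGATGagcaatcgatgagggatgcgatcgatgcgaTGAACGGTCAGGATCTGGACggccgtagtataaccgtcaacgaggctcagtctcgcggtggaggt
The sequences are listed as gGATTCGTgacgtttagagatt for PC-5p-468508_3 and tGAACGGTcaggatctggac for PC-3p-294250_4, with the seed in capitals. The last base listed for PC-5p-468508_3 differs from that of the marked arm. The study states an allowance of 1 mismatch for aligning reads to miRBase precursors, and its text gives none for the ESTs.

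The remaining 4 of these predicted sequences had few reads. PC-3p-296841_4 had 15 reads in root, against 1 in stem, 0 in leaf and 1 in flower (ratio 11.6, 2.19 to 119.5, by normalized count, 23.0 without flower and 7.73 without leaf). PC-3p-299219_4 had 12 reads in root, against 3, 0 and 2 in stem, leaf and flower, with a ratio of 3.97 (1.17 to 15.03). It lost its call without stem, at 4.66, and without leaf, at 2.65, as its interval then included 1. Its opposite arm on EST CV165835, PC-5p-659681_2, had 6 reads in root, against 2 in stem, 1 in leaf and 3 in flower. That arm had a ratio of 1.30 (0.34 to 4.90) by normalized count, with flower the highest library, and 2.32 by share. It was called on neither scale.

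The last pair are the opposite arms of the precursor on EST CV163994. The hairpin length listed by the authors is 20 for this precursor and 19 for the one on CV165835. Both are below the minimum hairpin length that the study gives among its criteria. PC-3p-479939_3 had 19 reads in root, against 1 in stem, 0 in leaf and 6 in flower (3.40, 1.33 to 9.55), and PC-5p-994633_2 had 13 reads in root, against 0 in stem and leaf and 5 in flower (3.03, 1.003 to 10.5). Without flower the ratio of the first was 29.1, and without stem or leaf it was 2.46 and 2.27 with no call. The second lost its call whichever library was left out. At these depths root and flower could not be told apart by normalized count, as the levels of PC-5p-994633_2 were 7.11 in root and 7.04 in flower.

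By share alone, 13 more sequences were higher in root, of which 3 have been described above. The most abundant was ppt-miR894_R+1, with 21298 reads in root, against 6921 in stem, 2717 in leaf and 9464 in flower. It made up 4.26% of the table reads in root, against 1.82%, 1.14% and 1.91%, and its ratio was 2.63 by share but 1.49 by normalized count, where flower was the highest library with 13334 against 11656 in root. Its direction against flower thus turned with the scaling, and without flower the ratio by normalized count was 2.31, a higher call.

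rgl-miR5139_L-1 (2281 reads in root, ratio 2.49 by share and 1.74 by normalized count) and ptc-miR6478_R+2_1ss21GA (1311 reads in root, 2.03 and 1.31) were also called by share alone, with root the highest library on both scales. miR894, miR5139 and miR6478 are less conserved families that resemble ends of ribosomal or transfer RNA. The 5 sequences that end in CCA, as mature tRNAs do, included 1 higher in root by normalized count and 3 by share. Among all 95 these calls were 13.7% and 27.4%, and 5 sequences are too few to set against them. Among the 5, nta-miR160a is of a conserved family. Their sum, most of it ppt-miR894_R+1, was 48228 reads per 1000000 in root, against 21925 in stem, 12759 in leaf and 20504 in flower. Summed normalized counts were 13183 in root, against 5959, 5778 and 14294 in stem, leaf and flower, so flower was the highest on that scale.

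Of conserved families, ath-miR394a had 335 reads in root, against 110 in stem, 41 in leaf and 151 in flower (2.63 by share and 1.49 by normalized count, and 2.34 with a call without flower). miR394 is known to act on an F-box protein of the shoot meristem and leaf. bdi-miR166e-5p, the 5′ arm of miR166, had 693 reads in root, against 246, 148 and 360 in stem, leaf and flower (2.09 by share and 1.18 by normalized count). osa-miR169n_R-1, of a family known to act on NF-YA factors, had 18.6 reads in root, against 13.8, 3 and 3 in stem, leaf and flower, and its ratio by share was 2.03, with a lower limit of 1.01 at the edge of the call. lus-miR169b_R-1, which differs from it by A9G, had 0 reads in root, against 9.5 in stem, 3 in leaf and 18.5 in flower, and was lower on both scales (at most 0.128 by normalized count, and 0.263 without flower).

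miR858 is known to act on MYB factors of phenylpropanoid metabolism, a pathway that also leads to the phenolic acids of this root. aly-miR858-5p_L-1R+1_1ss5GA had 146 reads in root, against 38 in stem, 36 in leaf and 28 in flower, with a ratio of 2.85 (2.18 to 3.73) by share and 1.77 (1.36 to 2.33) by normalized count, and 2.40 with a call by normalized count without leaf. The degradome table of the mixed tissues paired it with 5 ESTs, 4 of them annotated as MYB, which shared the same 167 reads, or 33.4 for each after division.

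The remaining 3 of this group were predicted sequences with 8 to 16 reads in root. PC-3p-673758_2 had 8 reads in root, against 4 in stem and 0 in leaf and flower, PC-5p-99703_12 had 9, against 2, 1 and 2 in stem, leaf and flower, and PC-3p-72449_18 had 16, against 10, 0 and 3. Their ratios by share were 4.57, 4.005 and 2.97. Each interval by normalized count included 1, and PC-3p-673758_2 and PC-5p-99703_12 passed the read minimum only through their root reads. Without stem, PC-3p-72449_18 had a ratio of 4.14 by normalized count and a call, and the bound of PC-3p-673758_2 was at least 0.882.

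The 27 sequences lower in root on both scales comprised 22 known sequences of 14 families and 5 predicted ones. By normalized count, flower was the highest library for 15 of them, leaf for 12 and stem for 0, and by share these were 13, 12 and 2. The lowest point estimate was that of csi-miR396c_1ss10TG, a 3′-arm sequence of miR396, the family that acts on growth-regulating factors (GRF). It is printed here beside the other 3′ sequence of the family.
csi-miR396c_1ss10TG: tTCAAGAAagctgtgggaag
mtr-miR396b-3p_L-1_1ss12CT: tTCAATAAagttgtgggaag
The first had 0.33 reads in root, against 36.5 in stem, 20.2 in leaf and 11.5 in flower, and its ratio was 0.00679 by normalized count and 0.00982 by share, and it rests on that fraction of a read, with an interval of 2.3e-07 to 0.090 by normalized count. The second had 654 reads in root, against 1146, 591 and 146 in stem, leaf and flower, with a ratio of 0.50 (0.46 to 0.55) by normalized count and 0.68 by share. Its lower call by normalized count was lost without stem (0.54) or leaf (0.70). The pair of 3′ sequences thus differed in their ratios by more than their counting intervals.

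miR393 is known to act on auxin receptors of the F-box type and, in Arabidopsis, responds to nitrate in roots. The longer form, gma-miR393a_R+1_1ss21CT (tCCAAAGGgatcgcattgattt), had 8 reads in root, against 79.5 in stem, 125 in leaf and 833 in flower, or 4.38 normalized counts in root, against 56.8, 238 and 1173. Its ratio was 0.00895 (0.0039 to 0.0177) by normalized count and 0.020 by share, and 0.030 without flower. The form that is 1 base shorter, gma-miR393a_1ss21CT, had 5 reads in root, against 22.5, 21 and 203 in stem, leaf and flower, with a ratio of 0.024 by normalized count and 0.098 without flower. Both forms were lowest in root and highest in flower on both scales.

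miR390, which triggers tasiRNAs that act on auxin response factors and is known for a role in lateral root growth in Arabidopsis, was also lower. cpa-miR390a had 33.5 reads in root, against 65.2 in stem, 14.3 in leaf and 386 in flower, with a ratio of 0.089 (0.061 to 0.127) by normalized count and 0.199 by share. By share root stood slightly above leaf, with 67.1 and 60.2 reads per 1000000. Without flower the ratio by normalized count was 0.497, at the limit of the call.

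Of the 6 miR166 variants that start at other bases than the main 3′ sequence, 4 were lower in root on both scales, against 28.4% of all 95. These 4 had at most 1.87 reads in root and 16 to 70 reads over the 4 libraries. Of the others, mes-miR166i_L+3R-2 was lower by normalized count alone (0.42, and 0.80 by share), and ptc-miR166n_L+4R-2 was not called (1.003 and 1.39). miR166 is known to act on class III HD-ZIP factors, which pattern the vascular cylinder and organ polarity. ptc-miR166p_L+2R-2 had 1 read in root, against 15 in stem, 6.33 in leaf and 47.7 in flower (ratio 0.018 by normalized count, and 0.048 without flower). ppt-miR166j_L+1R-1 had 1 read in root, against 2.17, 4.84 and 19.2 in stem, leaf and flower (0.043, and 0.102 without flower). Both were called lower with and without flower. The main sequence, bdi-miR166a-3p, had 362860 reads in root, against 301237, 189423 and 448913 in stem, leaf and flower, and made up 72.7% of the table reads in root, against 79.2%, 79.5% and 90.7%. Its ratio was 0.49 by normalized count, just within a lower call, and 0.87 by share, and it was 0.69 and no call without flower.

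All 8 sequences on the list of mineral nutrition families had ratios below 1 on both scales. By normalized count 7 were lower and 0 higher in root, and by share 6 were lower, against 48.4% and 28.4% of all 95 sequences. The median ratio of the list was 0.160 by normalized count and 0.313 by share, against 0.438 and 0.796 over all sequences, with sequences at 0 in root entered at their bounds. The whole list summed to 151 reads per 1000000 in root, against 112.6 in stem, 923 in leaf and 480 in flower. Root thus stood above stem by share, and it did so by normalized count too, with 41.3 against 30.6.

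Within the list, mtr-miR399k_1ss13TA, of the phosphate family miR399, had 2 reads in root, against 1 in stem, 2 in leaf and 41 in flower (ratio 0.053 by normalized count, but 0.485 and no call without flower). cpa-miR395a_L+1, of the sulfate family miR395, had 0 reads in root, against 3 in stem, 8 in leaf and 2 in flower (at most 0.244, and at most 0.662 with no call without leaf). The copper families were represented by ppe-miR398b_R-1_1ss2GA, with 3 reads in root, against 7, 28 and 12 in stem, leaf and flower, and by aly-miR408-3p_L-1R+1, with 42.8 in root, against 15.5, 129 and 71.3. Their ratios were 0.066 and 0.197 by normalized count, and 0.150 and 0.420 without leaf. A second miR398 sequence, aqc-miR398b_L+2R-2, had 8.67 reads in root, against 3.67, 25.7 and 43.3 in stem, leaf and flower (0.127 by normalized count). For this sequence and for miR408, root exceeded stem by both scales. Their normalized counts in root and stem were 4.74 and 2.62 for aqc-miR398b_L+2R-2, and 23.4 and 11.04 for miR408. The sequence not called on either scale was mdm-miR397a_1ss20AC, with 7 reads in root, against 1, 4 and 12.

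On the phase change list, 10 of 13 sequences were lower by normalized count and 4 by share, against 48.4% and 28.4% of all 95. By share, the number of lower calls was thus near the rest. On either scale 0 were higher, against 13.7% and 27.4% of all 95. The median ratio of the list was 0.248 by normalized count and 0.459 by share, against 0.438 and 0.796 over all sequences. miR156, which acts on SPL factors and marks the juvenile phase, had 8 sequences, of which 8 were lower by normalized count and 4 by share. mdm-miR156a_L+3_1ss22AC had 1.5 reads in root, against 17.3 in stem, 12.8 in leaf and 0.75 in flower (ratio 0.065 by normalized count, and 0.123 without leaf). The most abundant miR156 sequence in root, rco-miR156f, had 229 reads there, against 265, 123 and 312 in stem, leaf and flower (0.44 by normalized count, 0.59 and no call without flower, and 0.75 by share). miR172, which acts on floral repressors opposite to miR156, was not uniformly low, since nta-miR172d had 304 reads in root, against 314, 47 and 11 in stem, leaf and flower, a ratio of 1.51 by normalized count and 1.74 by share with no call. Without stem its ratio by normalized count was 3.17, a higher call.

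**Figure D3:**
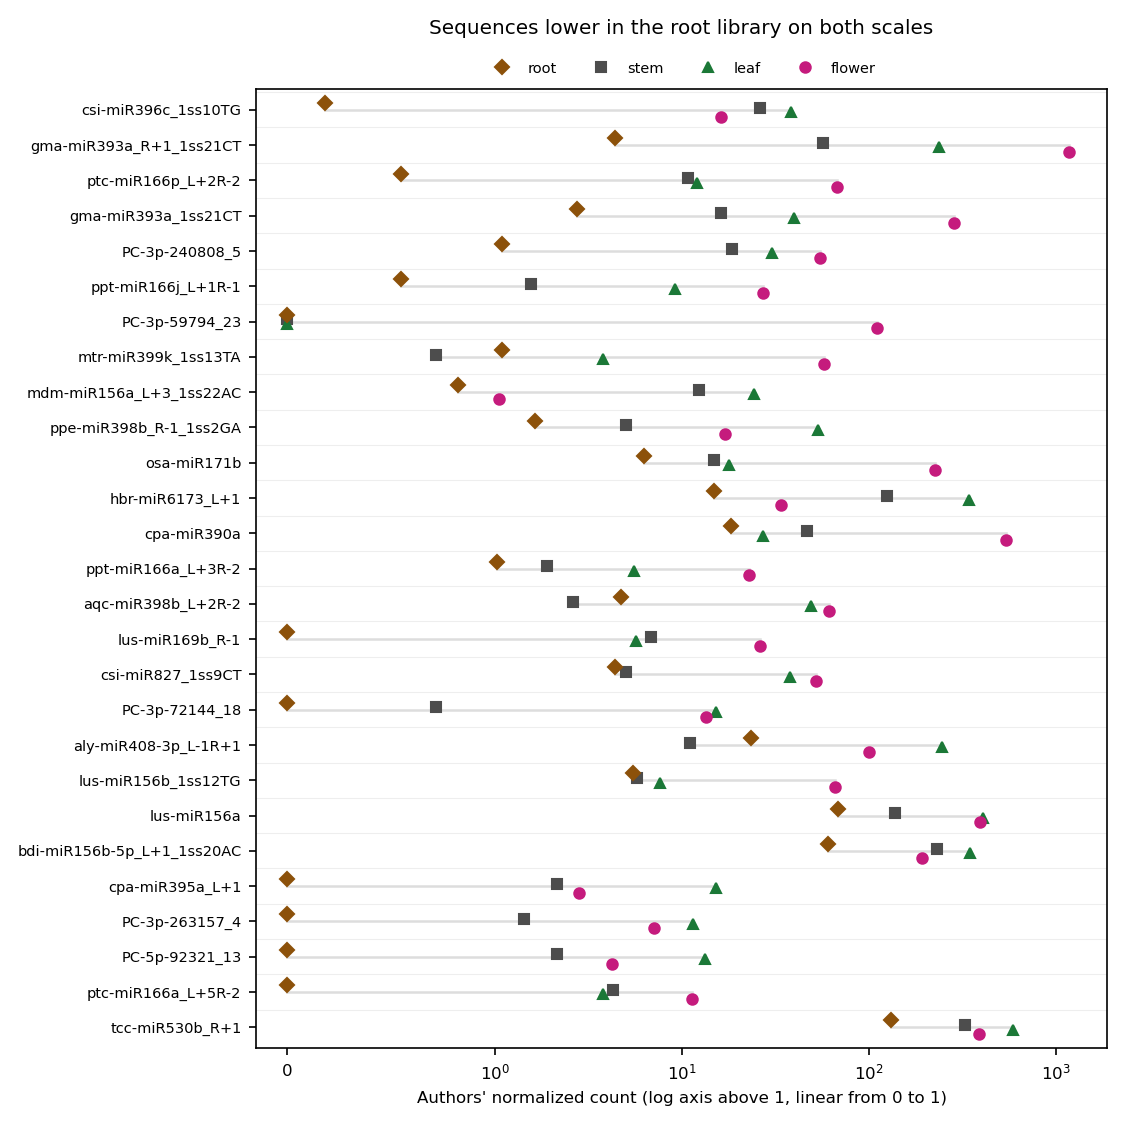
Authors' normalized count in the root, stem, leaf and flower libraries for the 27 sequences lower in root on both scales, from the lowest ratio at the top. Root is the leftmost symbol, at 0.18 for csi-miR396c_1ss10TG, except for mtr-miR399k_1ss13TA, aqc-miR398b_L+2R-2 and aly-miR408-3p_L-1R+1, where stem is, and PC-3p-59794_23, where root, stem and leaf are at 0. Flower or leaf is the rightmost in every line.

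Of the largest list, development and hormones, 7 of 41 sequences were higher by normalized count and 18 lower, and by share 12 were higher and 11 lower. These are near the shares over all 95 sequences, 13.7% and 48.4% by normalized count and 27.4% and 28.4% by share. The list holds the extremes of both directions, with ratios from 0.00679 to 684 by normalized count. The families of small RNA machinery had 3 sequences, all of miR168 and miR403, which act on ARGONAUTE transcripts. Their ratios were 0.56 to 0.71 by normalized count and 0.83 to 1.03 by share, and none was called. Predicted sequences were higher for 5 of 19 and lower for 8 by normalized count, and higher for 9 and lower for 5 by share, where the lower calls are near those same overall shares. Of the 8 sequences with ribosomal or transfer RNA-like ends, 1 was higher by normalized count and 4 by share, against 13.7% and 27.4% of all sequences. The call lower on both scales in this list was hbr-miR6173_L+1, with 27 reads in root, against 174 in stem, 181 in leaf and 24 in flower (ratio 0.088 by normalized count, and 0.187 without leaf).

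**Figure D4:**
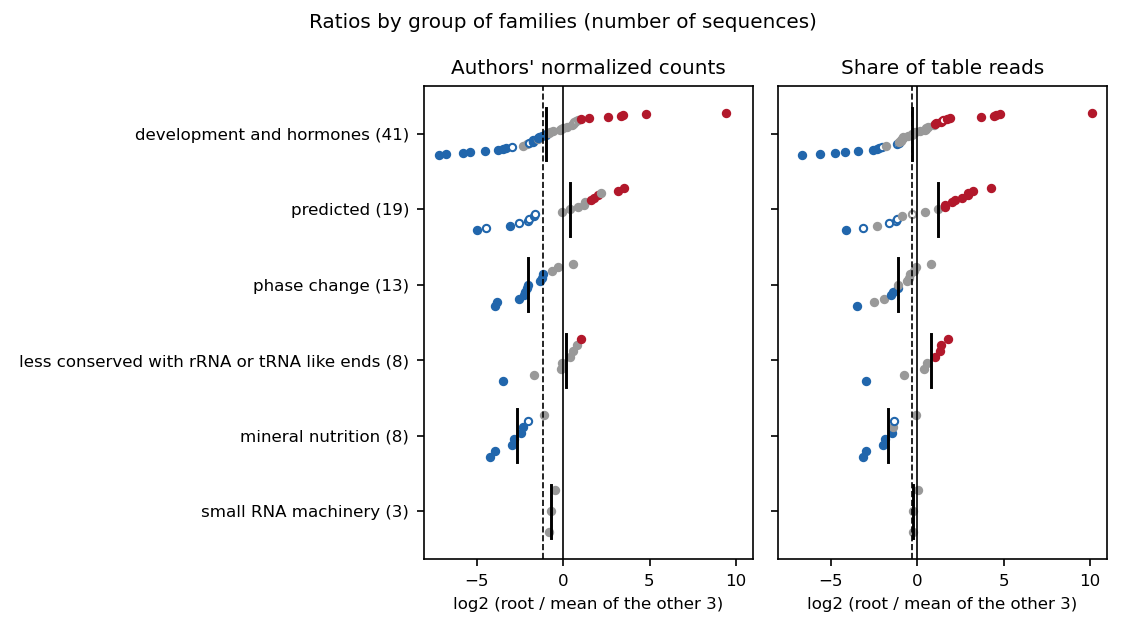
Ratio of root to the mean of the others on a log2 scale for each list of families with at least 2 sequences, by normalized count (left) and by share (right). Red points are higher, blue lower and grey not called, open circles are bounds, short bars are list medians and the dashed line is the median of all 95 sequences. The mineral nutrition list lies left of 0 in both panels, and the predicted sequences fall on both sides.

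Among sequences with 0 reads in root, 9 were found, with 11 to 78 reads in the other libraries, which alone carried them over the read minimum. The largest was PC-3p-59794_23, whose 78 reads were all in flower, so it stood at 0 in root, stem and leaf alike (at most 0.045 by normalized count). PC-5p-376893_3, the opposite arm of its precursor on EST CV167603, had 11 reads there and 0 elsewhere. The others were ptc-miR166a_L+5R-2, PC-5p-92321_13, PC-3p-263157_4 and PC-3p-72144_18, beside the miR164, miR169 and miR395 sequences given above, and their bounds lay between 0.128 and 0.299. Without leaf, the bounds of PC-5p-92321_13 and PC-3p-263157_4 were 0.515, no call, and 0.388, and without flower that of ptc-miR166a_L+5R-2 was 0.406. A count of 0 in root allowed up to 3 reads there, or 1.64 normalized counts. PC-3p-240808_5, with 2 reads in root, against 26, 16 and 39 in stem, leaf and flower (0.032), was the lowest predicted sequence that was detected in root.

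The 10 most abundant sequences of root made up 97.9% of its reads. After miR166 and miR159 (72.7% and 15.3%) came ppt-miR894_R+1, csi-miR164, vvi-miR319b_R-1 and lus-miR171h_L-1R+1, followed by peu-miR2916_R-4_1ss6AG, csi-miR396a_1ss21GT, har-miR403a and rgl-miR5139_L-1. Of these, 3 were higher in root on both scales and 2 more by share. Among all 95, 13.7% were higher on both scales and 27.4% by share. The 10 were picked by their root reads, which favours high ratios of root, so the counts cannot be compared. miR159 acts on GAMYB-like factors, and its main sequence had 41783 normalized counts in root, against 34514 in stem, 68414 in leaf and 32276 in flower, with no call on either scale. har-miR403a, of a family that acts on an ARGONAUTE transcript, had 1299 normalized counts in root, against 2797, 2158 and 1489 in stem, leaf and flower, and its ratio of 0.60 was not called.

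Reads starting with T made up 94.5% of the table reads in root, against 97.2% in stem, 98.4% in leaf and 97.5% in flower, and reads starting with C made up 4.65%, against 2.11%, 1.32% and 2.09%. ppt-miR894_R+1, which starts with C, accounts for 4.26 of the 4.65 percentage points in root. Sequences of 21 bases held 81.7% of root reads, against 84.6%, 83.8% and 94.3% in stem, leaf and flower. The 10 sequences with the most reads over the 4 libraries together include gma-miR168a in place of lus-miR171h_L-1R+1. Without these, C-starting reads made up 15.7% in root, against 15.7% in stem, 7.64% in leaf and 12.33% in flower. No feature of length or first base was tested for the sequences higher in root, as these were chosen by their ratios.

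Degradome pairs were listed for 9 of the 95 sequences, of which 4 were higher in root on both scales and 1 lower, against 13.7% and 28.4% of all 95. Of the 4, 2 are the length variants of miR164 and are not separate. Both miR164 forms were paired with the same 2 ESTs, CV165125 and CV165450, which share the same 3 reads, in category 2, which is below the strongest peak of a transcript. These 2 ESTs are also the ones on which the table places the precursors of lus-miR164a_R-1, on the minus strand. tcc-miR530b_R+1, lower in root with 239 reads against 456, 309 and 274 in stem, leaf and flower (0.302 by normalized count), had 2 pairs that share 1 read.

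At the read minimum, the 2 sequences just inside were ptc-miR166n_L+4R-2 with 10.75 reads and osa-miR319a-3p.2-3p_R+1 with 10.25, and neither was called. Just outside lay 4 sequences with 9 to 9.78 reads, of which bdi-miR396a-5p had 3.56 reads in root and ptc-miR399e_1ss1CT 0.89. Of the 95 sequences, 57 had under 100 reads over the 4 libraries and the median was 68.5, so for most of them only large ratios could be detected. The 4 libraries' reads departed from their relative depths at p under 0.01 for 78 of the 95 (chi-squared test, replaced by an exact multinomial test at low expected counts), which compares libraries and not tissues.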

How the data were processed

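The root gave 1 small RNA library, as did stem, leaf and flower, and cleaved RNA ends were sequenced from a mixture of the 4 tissues. Using ACGT101-miR version 4.2, the authors trimmed adapters, kept reads of 18 to 25 nt, dropped those of other RNA classes and matched the rest to miRBase 20 and to ESTs. Reads per entry in the deposited table are estimated counts. The authors' normalized counts are a signal, for which reads were multiplied by a factor per library derived from sequences common to the libraries. For the degradome, reads at a cleavage site are a count and the category a score that the authors obtained with CleaveLand 3.0, and ACGT301-DGE 1.0 is named in the labels.

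Reads were summed per distinct sequence over 650 entries, and 6 lines were not analysed here. Library totals of clean reads come from the study and served 1 scaling only. Intervals used an exact Poisson interval for root and a gamma interval for the weighted mean of the others, joined on the log scale, and were tested on simulated data. Described were all sequences called higher on either scale, the 10 lowest of those lower on both, the 10 most abundant in root, families called in both directions, opposite arms and length variants, and sequences at 0. Other sequences given by name were chosen after their values were seen, and all members and lists were chosen with earlier results of these data known. Functions of families are background knowledge, and EST annotations are the study's. Alternatives covered the scaling, the read minimum, the unit counted, the libraries in the mean, the fold and the test. Values were computed in Python 3.11.15 with scipy 1.17.1 and pandas 2.3.3, on numpy 2.4.6, and drawn with matplotlib 3.10.9.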

Additional observations from a re-analysis of the deposited data

How the results depend on the processing

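The 13 higher and 46 lower calls changed with the scaling, the minimum and the comparison library. By share of table reads they were 26 and 27, per clean read 20 higher, and with median of ratios 24 higher. A minimum of 30 reads left 8 higher of 61 sequences, and one of 100 reads left 7 higher and 15 lower of 38, as fewer sequences were tested. Summed to families, 5 were higher and 14 lower of 37. Against the median of the other libraries 28 were lower, against the highest or lowest of them 6 were higher and 13 lower, and at a fold of 4 these were 7 and 29. The cause of these moves was not tested. The other settings stayed within 1.5 times of both counts. Without the most abundant sequence in the totals, PC-5p-994633_2, nta-miR477a and osa-miR5072_L-4_1ss13GA were no longer higher.

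Among called sequences, the direction reversed for 2. The lower call of stu-miR156d-3p_R-1_2ss1GA10GA became a ratio of 1.53 without flower, and that of tcc-miR172d_1ss1AT became 2.51 without flower and 1.25 against the median. No paired analysis was possible because each tissue had 1 library and no replicate number. Counting intervals hold no spread between plants or preparations, so a difference between tissues could not be tested at any depth.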
